A study of Homo sapiens with 10 samples.

Results

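The 8 genes ARAF, BRAF, KSR1, MAP2K1, MAP2K2, MAPK3, RPS6KA1 and RPS6KA3 encode protein kinases, or kinase-like scaffolds, of the cascade that carries a signal from RAS to ERK and on to the RSK kinases. They were taken by symbol from a table of RNA-seq counts that lists 23228 genes, and all 8 were found there. By its label, the RNA came from RD, an established human rhabdomyosarcoma line. Rhabdomyosarcoma is a soft tissue tumour with features of skeletal muscle. For 3 groups, a nonspecific siRNA (also labelled a scrambled control), NRAS siRNA 1 or NRAS siRNA 2 was transfected at 10 nM, with harvest after 48 h. Other RD cells received DMSO, the vehicle, or 300 nM of the ERK inhibitor SCH772984, and were harvested after 24 h. Each of these 5 groups held 2 libraries, and every group is labelled as the same single cell line with no further genotype named. Nothing in the labels ties the replicates to separate cultures, so each p-value reflects only the spread between libraries, which may be technical. The comparisons ask whether the transcripts of the cascade's own kinases depend on NRAS, which acts above them, or on ERK activity, which lies within the cascade.

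In this cascade, active RAS recruits RAF kinases such as A-RAF and B-RAF to the membrane, RAF phosphorylates MEK1 and MEK2, and MEK phosphorylates ERK. ERK in turn activates the RSK kinases and induces transcripts of its own inhibitors, the DUSP, SPRY and SPRED families, which dampen the signal. RD cells are known to carry an activated allele of NRAS.

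Every library had between 23224063 and 30768970 counts assigned to genes, and 14761 genes, the 8 kinases among them, passed the filter on low counts. NRAS was lowered to 21.3% of its control level by siRNA 1 and to 20.1% by siRNA 2. Of 13 ERK feedback genes, 12 fell with the inhibitor, beside 14.8% of all tested genes, and 10 fell with the NRAS siRNAs averaged, beside 4.99%. The labelled line was checked against 13 markers of rhabdomyosarcoma. DES (520 to 928 counts), PAX3 (258 to 393) and MEF2C (781 to 1374) were present. MYOD1 did not exceed 5 counts, MYOG did not exceed 3 and MYF5 was at 0 in all 10 libraries. Of these 13 markers, 6 had at most 6 counts in every library. The check thus did not settle the identity of the line, which rests on the label. Of 15 markers of other cell types, 7 had at most 6 counts in every library. The summed level of those 15 was 385 to 449 CPM in DMSO and 596 to 643 CPM with the inhibitor. In the transfected groups the sum was 377 to 403 CPM (nonspecific siRNA), 294 to 332 CPM (siRNA 1) and 318 to 377 CPM (siRNA 2). In this sum, CPM are counts scaled by library total alone. For all other gene levels given, CPM are counts scaled by library total and TMM factor, in units common to all libraries. Most of that sum came from KRT18 (3017 to 9825 counts) and COL2A1 (2840 to 9188 counts). The part of these markers in the results on the kinases was not tested. In bulk RNA, fewer cells that express a gene and less of its RNA per cell cannot be told apart.

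All 8 genes have a promoter in the RefSeq table (GRCh38.p14), and 4 of the 5 whose transcripts passed a test against their own control are shown: RPS6KA1 and MAP2K1, which fell with the ERK inhibitor, KSR1, which rose with it, and MAP2K2, which fell with the NRAS siRNAs. The promoter of RPS6KA3, which fell most with the inhibitor, is not shown. The stretches run 5′ to 3′ on the strand of the gene and end at, or shortly before, the annotated start. They lie at chr1:26529611-26529760 (plus strand) for RPS6KA1, chr15:66386747-66386816 (plus strand) for MAP2K1, chr17:27456298-27456447 (plus strand) for KSR1 and chr19:4124130-4124279 (minus strand) for MAP2K2. Capitals mark matches to the GC box GGGCGGGG and to CCAAT, on either strand.
RPS6KA1: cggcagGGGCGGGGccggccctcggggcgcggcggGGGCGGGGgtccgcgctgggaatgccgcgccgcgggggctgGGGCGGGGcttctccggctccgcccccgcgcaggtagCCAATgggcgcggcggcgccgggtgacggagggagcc
MAP2K1: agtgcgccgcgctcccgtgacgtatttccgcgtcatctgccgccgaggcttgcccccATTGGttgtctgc
KSR1: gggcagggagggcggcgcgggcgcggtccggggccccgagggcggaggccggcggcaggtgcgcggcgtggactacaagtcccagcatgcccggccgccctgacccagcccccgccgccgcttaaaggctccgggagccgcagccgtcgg
MAP2K2: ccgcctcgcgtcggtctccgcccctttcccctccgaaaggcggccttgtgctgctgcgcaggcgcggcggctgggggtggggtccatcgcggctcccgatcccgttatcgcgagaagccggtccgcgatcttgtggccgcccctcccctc

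Over the 250 bases before the 5′-most RefSeq start, G and C made up 59.2 to 80.8% of the bases in the 8 genes, against a median of 58% over 35116 RefSeq promoters. By the GENCODE 29 annotation, the windows of BRAF, MAPK3 and RPS6KA3 lie within the span of the gene. Those of ARAF, MAP2K1 and MAP2K2 lie partly within it, so these windows can hold transcribed bases. The GC box, the letters bound by SP and KLF factors, occurred in 3 of 8 (MAP2K1, MAPK3 and RPS6KA1) and in 21.8% of all promoters. The letters CCAAT occurred in 4 of 8 (ARAF, BRAF, MAP2K1 and RPS6KA1) and in 32% of all, and the E-box CACGTG in 1 of 8 (MAPK3) and in 6.34% of all. The ETS letters CCGGAAGT, the AP-1 letters TGANTCA and the CRE letters TGACGTCA occurred in none of the 8 windows, against 3.42%, 6.57% and 1.65% of all promoters. Both strands were searched, none of these motifs contains another, and each match is a description of letters only. Neither KSR1 nor MAP2K2 had a match in the 5′-most window. Before a further annotated start of KSR1, the window chr17:27471714-27471963 held 1 AP-1 match. Windows before the other further starts of the 8 genes held no match. The shares over all promoters are not limited to 5′-most starts.

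With the ERK inhibitor, 4 of the 8 kinase genes passed the test, 3 of them lower and 1 higher, beside 28.0% of all tested genes (14.8% lower and 13.2% higher). The genes of the RSK kinases RPS6KA3 and RPS6KA1 and the MEK gene MAP2K1 fell, to 54.8%, 57.5% and 68.9% of their DMSO level, and the scaffold gene KSR1 rose to 157%. ARAF, BRAF, MAP2K2 and MAPK3 did not pass. Every adjusted p given here comes from the quasi-likelihood test of edgeR, adjusted by the Benjamini-Hochberg method over 14761 genes, with a threshold of 0.05. The median log2 fold change of the 8 was -0.21, beside 0.00070 over all tested genes.

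**Figure D1:**
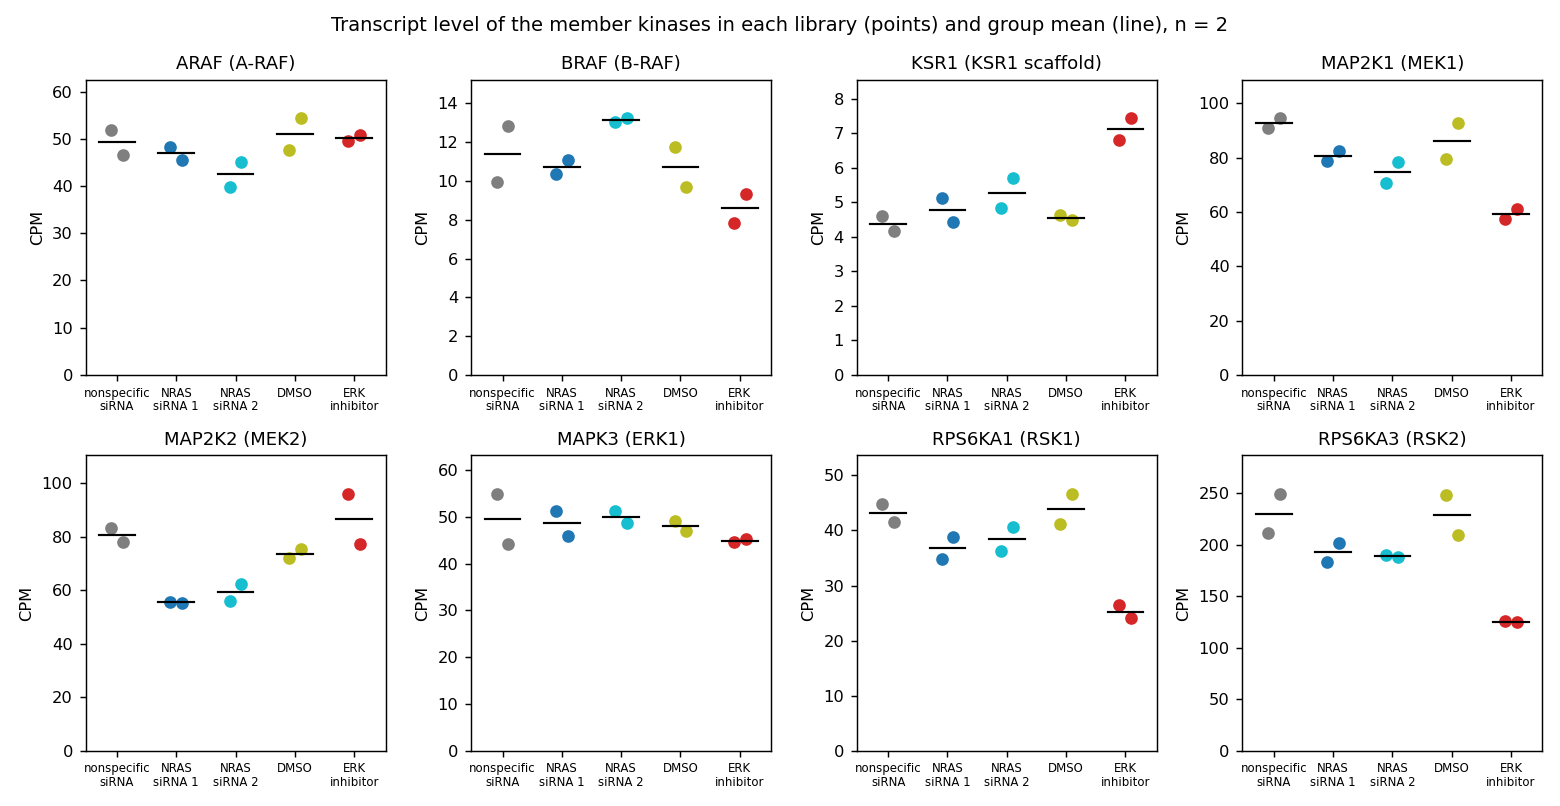
Level of each of the 8 kinase genes in CPM (vertical axis, starting at 0) in the 5 groups (horizontal axis). Points are single libraries and lines are the means of 2. The ERK inhibitor libraries lie below both DMSO libraries for RPS6KA1, RPS6KA3 and MAP2K1 and above them for KSR1, and the NRAS siRNA libraries lie below both nonspecific siRNA libraries for MAP2K2.

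Among the RAF family, ARAF encodes A-RAF, a RAF kinase with low basal activity. ARAF was at 47.5 and 54.3 CPM in DMSO and at 49.6 and 50.7 CPM with the inhibitor. Both inhibitor libraries lay between the DMSO libraries. The log2 fold change was -0.02 (SE 0.11), with a 95% interval from -0.27 to 0.22 and adjusted p = 0.898 in edgeR, and its sign turned to 0.034 with upper-quartile scaling. Its gene lies at chrX:47561100-47571920 (GRCh38, plus strand), where its last bases overlap the span of SYN1 on the other strand by 23 bases.

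BRAF encodes B-RAF, the RAF kinase most often mutated in cancer. BRAF was at 11.8 and 9.68 CPM in DMSO and at 7.84 and 9.35 CPM with the inhibitor. The groups did not overlap, but the higher inhibitor library lay close to the lower DMSO library. At a log2 fold change of -0.31 (SE 0.17, 95% interval -0.70 to 0.066, edgeR adjusted p = 0.197) it did not pass. Its counts, 206 to 411 per library, were among the lowest of the 8 and its SE accordingly among the largest. The span of BRAF (chr7:140719327-140924928, minus strand) shares 3464 bases with that of NDUFB2 on the opposite strand, introns included. Overlap of exons was not computed. Whether reads from exons in that stretch were assigned to either gene is not known, because no source used here gives the strand setting of the counting.

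KSR1 encodes a kinase-like scaffold that binds RAF, MEK and ERK together. KSR1 was at 4.62 and 4.48 CPM in DMSO and at 6.81 and 7.44 CPM with the inhibitor, the highest values of the 10 libraries. Both inhibitor libraries thus stood above every other library. It rose by 0.65 on the log2 scale (SE 0.17, edgeR adjusted p = 0.0177). KSR1 was the least abundant of the 8 at 105 to 218 counts, and its call was lost when any 1 of the 4 libraries was left out, with adjusted p = 0.0574 without DMSO replicate 1, 0.0884 without DMSO replicate 2, 0.0555 without ERK inhibitor replicate 1 and 0.0845 without ERK inhibitor replicate 2. The log2 fold change stayed between 0.58 and 0.71 in those fits. The span of KSR1 (chr17:27456470-27626438, plus strand) shares 3075 bases with that of the protein-coding gene AC015688.4 on the same strand, introns included. No gene of that name was among those counted, and overlap of exons was not computed.

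Of the pair of MEK genes, MAP2K1 encodes MEK1. MAP2K1 was at 79.4 and 92.7 CPM in DMSO and at 57.5 and 61.1 CPM with the inhibitor. The inhibitor libraries were the lowest of all 10. It fell by 0.54 on the log2 scale (SE 0.10, edgeR adjusted p = 0.00442), and its log2 fold change was -0.39 with adjusted p = 0.0545 without DMSO replicate 2. The span of MAP2K1 (chr15:66386817-66492312, plus strand) shares 2178 bases with that of SNAPC5 on the opposite strand, introns included. The limits on exons and strand are the same as for BRAF.

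MAP2K2 encodes MEK2, which shares its substrates with MEK1. MAP2K2 was at 72.0 and 75.4 CPM in DMSO and at 96.0 and 77.2 CPM with the inhibitor. Both inhibitor libraries lay above DMSO, but 1 of them by little. With a log2 fold change of 0.23 (SE 0.11, 95% interval -0.021 to 0.49, edgeR adjusted p = 0.155) it did not pass, and leaving out 1 library gave 0.068 to 0.38. The interval leaves out a fall of the size seen for MAP2K1.

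MAPK3 encodes ERK1, a direct target of the inhibitor as a protein. MAPK3 was at 49.1 and 46.9 CPM in DMSO and at 44.7 and 45.2 CPM with the inhibitor. The inhibitor libraries were slightly lower than both DMSO libraries. This difference, -0.10 on the log2 scale (SE 0.12, 95% interval -0.36 to 0.16, edgeR adjusted p = 0.572), did not pass.

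The RSK kinases are activated by ERK and carry its signal to the ribosome, to transcription factors and back to the receptor end of the pathway. RPS6KA1 encodes RSK1. RPS6KA1 was at 41.1 and 46.6 CPM in DMSO and at 26.4 and 24.1 CPM with the inhibitor. All 8 other libraries, siRNA groups included, stood above both inhibitor libraries. RPS6KA1 fell by 0.80 on the log2 scale (SE 0.12, edgeR adjusted p = 0.00105).

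RPS6KA3 encodes RSK2, whose loss causes Coffin-Lowry syndrome. RPS6KA3 was at 248 and 209 CPM in DMSO and at 126 and 125 CPM with the inhibitor. The inhibitor libraries nearly coincided and were far below all others. RPS6KA3 fell by 0.87 on the log2 scale (SE 0.11, edgeR adjusted p = 0.000474). The calls of RPS6KA1 and RPS6KA3 were retained in every alternative fit that was run for this comparison, with adjusted p of at most 0.0149 and 0.00679 on leaving out 1 library.

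**Figure D2:**
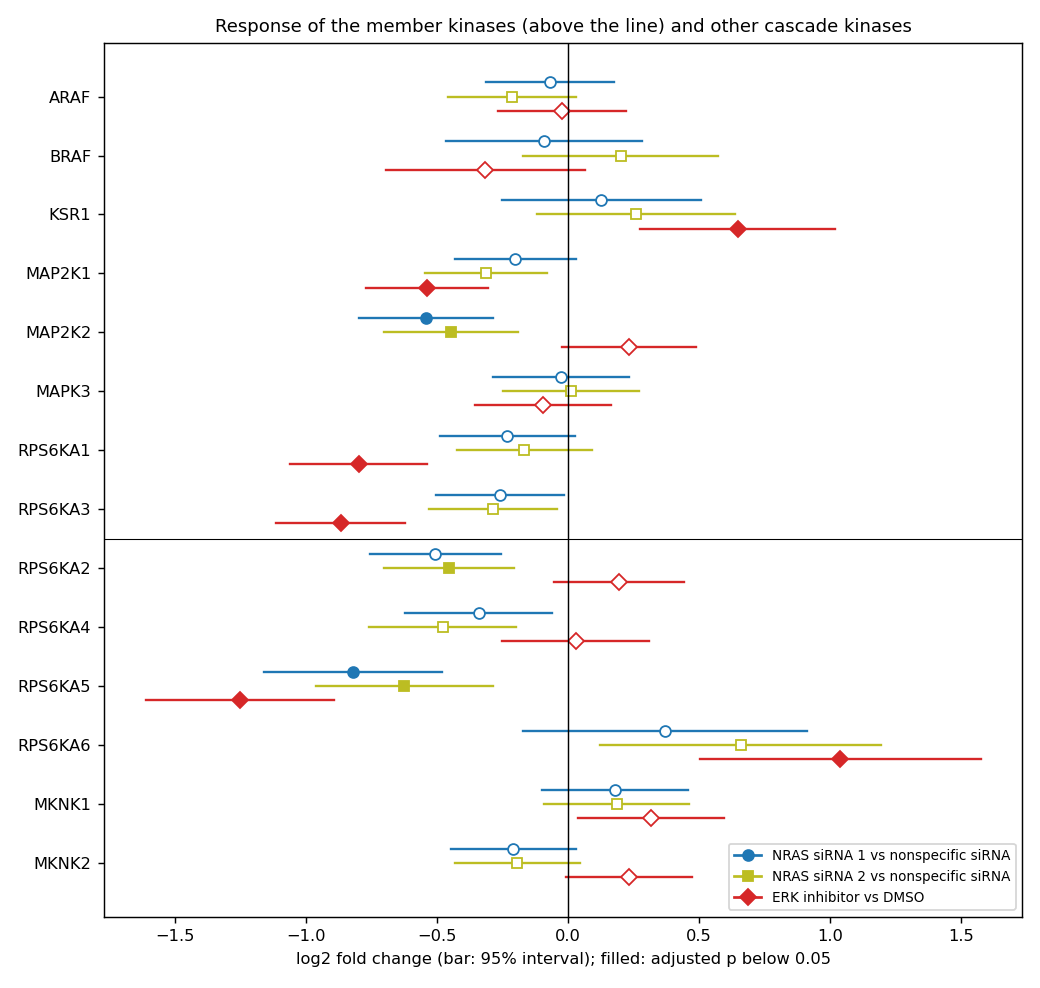
Log2 fold change (horizontal axis) of the 8 kinase genes, above the line, and of other kinases of the cascade, below it, for NRAS siRNA 1 and siRNA 2 against the nonspecific siRNA and for the ERK inhibitor against DMSO. Bars are 95% intervals and filled symbols passed the threshold. RPS6KA1 and RPS6KA3 lie at -0.80 and -0.87 with the inhibitor, and MAP2K2 is filled for both siRNAs and open for the inhibitor.

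Of 11 further kinases of the cascade, 9 could be tested, and 1 rose and 1 fell with the inhibitor, beside 28.0% of all tested genes called. RPS6KA5, which encodes the ERK- and p38-activated kinase MSK1, was at 17.6 and 13.1 CPM in DMSO and at 6.43 and 6.41 CPM with the inhibitor, a log2 fold change of -1.25 (SE 0.16, edgeR adjusted p = 0.000497). RPS6KA6, which encodes RSK4, was at 10.4 and 6.87 CPM in DMSO and at 16.9 and 18.5 CPM with the inhibitor, a log2 fold change of 1.04 (SE 0.24, edgeR adjusted p = 0.0106). The RSK family thus did not move as a block: RPS6KA1 and RPS6KA3 fell, RPS6KA6 rose, and RPS6KA2, the gene of RSK3, did not pass at 0.19 (SE 0.11, adjusted p = 0.220). RPS6KA6 lost its call without DMSO replicate 2 (0.79, adjusted p = 0.0863) and without ERK inhibitor replicate 2 (0.97, adjusted p = 0.0525).

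RPS6KA4, the gene of MSK2, at 0.03 (SE 0.13), MKNK1 at 0.32 (SE 0.12), MKNK2 at 0.23 (SE 0.11) and MAP3K8 at 0.75 (SE 0.36) did not pass. Summed over RPS6KA1, RPS6KA2, RPS6KA3 and RPS6KA6, the RSK transcripts were at 338 and 302 CPM in DMSO and at 215 and 211 CPM with the inhibitor. RPS6KA3 supplied 73.2 and 69.2% of the RSK counts in DMSO and 58.4 and 59.1% with the inhibitor, so its share was lower in both inhibitor libraries. These sums and shares are not scaled by length, so genes with longer transcripts weigh more. The longest annotated transcript has 3202 bases for RPS6KA1, 5992 for RPS6KA2, 8111 for RPS6KA3 and 8169 for RPS6KA6.

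With the NRAS siRNAs averaged, 1 of the 8 kinase genes passed the test, beside 7.95% of all tested genes (4.99% lower and 2.97% higher). It was MAP2K2, which fell. The median log2 fold change of the 8 was -0.17, beside -0.0054 over all tested genes. MAP2K2 also passed with siRNA 1 alone (1 of 8, beside 2.07% of all genes) and with siRNA 2 alone (1 of 8, beside 6.43%). Both siRNA comparisons share the nonspecific siRNA libraries.

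MAP2K2 was at 83.3 and 78.2 CPM with the nonspecific siRNA, at 55.7 and 55.3 CPM with siRNA 1 and at 56.1 and 62.3 CPM with siRNA 2. All 4 NRAS siRNA libraries lay below every other library of the series. The log2 fold change was -0.54 (SE 0.12, edgeR adjusted p = 0.0445) for siRNA 1, -0.45 (SE 0.12, adjusted p = 0.0480) for siRNA 2 and -0.49 (SE 0.10, adjusted p = 0.0180) for their mean. These calls stood close to the threshold. The call for the mean was lost without nonspecific siRNA replicate 1 (adjusted p = 0.121), nonspecific siRNA replicate 2 (0.0561), siRNA 1 replicate 1 (0.0553) or siRNA 2 replicate 1 (0.0648). Those for single siRNAs were lost on leaving out any 1 of their libraries and with another scaling of the libraries (adjusted p = 0.0544 to 0.0628), and with only the groups compared (0.0978 for siRNA 1 and 0.110 for siRNA 2).

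MAP2K1 was at 90.7 and 94.5 CPM with the nonspecific siRNA, at 78.6 and 82.4 CPM with siRNA 1 and at 70.5 and 78.6 CPM with siRNA 2. Every NRAS siRNA library was lower than both controls. The log2 fold change of the mean, -0.26 (SE 0.09, 95% interval -0.46 to -0.059, edgeR adjusted p = 0.102), did not pass. RPS6KA3 was at 211 and 249 CPM with the nonspecific siRNA, at 183 and 202 CPM with siRNA 1 and at 190 and 188 CPM with siRNA 2. It too was lower in all 4 NRAS siRNA libraries, and at -0.27 (SE 0.09, edgeR adjusted p = 0.102) it did not pass.

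RPS6KA1 was at 44.8 and 41.6 CPM with the nonspecific siRNA, at 34.7 and 38.8 CPM with siRNA 1 and at 36.2 and 40.7 CPM with siRNA 2. The groups did not overlap, by a small margin for siRNA 2, and the log2 fold change of the mean was -0.20 (SE 0.10, edgeR adjusted p = 0.235). In this comparison 4 of the 8 genes (MAP2K1, MAP2K2, RPS6KA1 and RPS6KA3) had all 4 NRAS siRNA libraries below both controls, beside 19.3% of all tested genes in that direction.

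KSR1, the scaffold gene that rose with the inhibitor, was at 4.59 and 4.17 CPM with the nonspecific siRNA, at 5.14 and 4.43 CPM with siRNA 1 and at 4.82 and 5.69 CPM with siRNA 2. The siRNA 1 libraries overlapped the controls, and the log2 fold change of the mean was 0.19 (SE 0.15, 95% interval -0.14 to 0.53, edgeR adjusted p = 0.441). BRAF at 0.05 (SE 0.15), ARAF at -0.14 (SE 0.09) and MAPK3 at -0.0071 (SE 0.10) did not pass either, with adjusted p of 0.843, 0.373 and 0.973. MAPK3, at 54.9 and 44.1 CPM with the nonspecific siRNA and between 45.9 and 51.3 CPM in the 4 NRAS siRNA libraries, took either sign depending on the scaling.

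**Figure D3:**
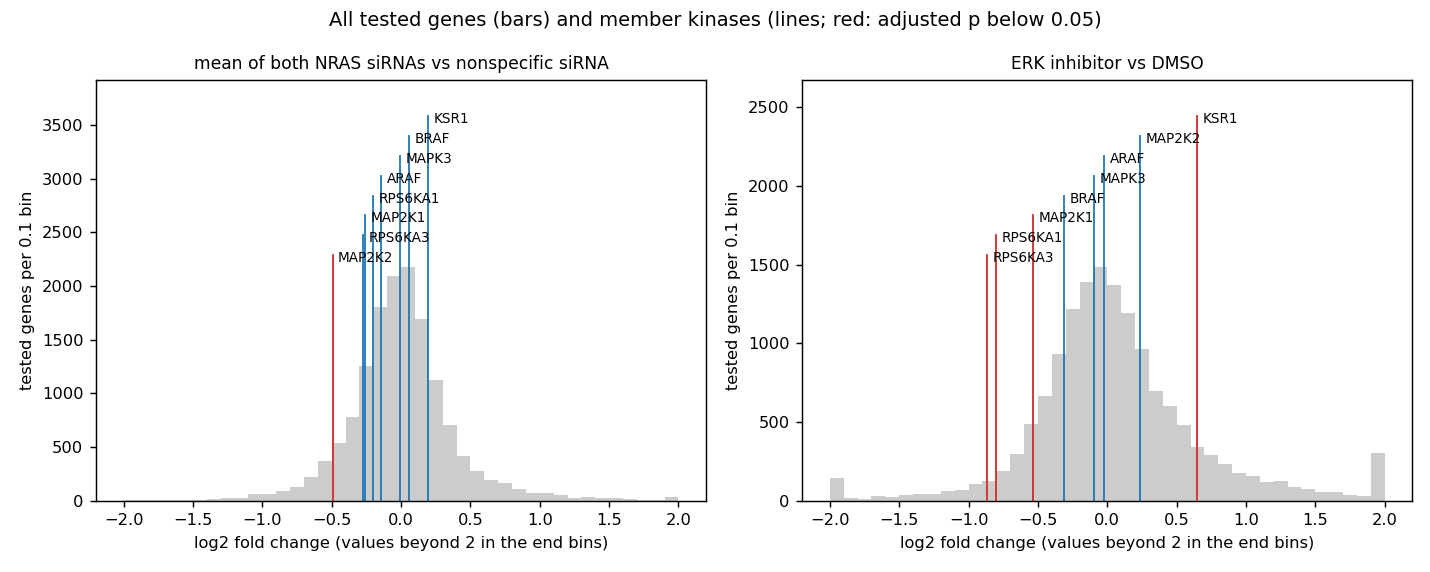
Distribution of log2 fold changes (horizontal axis) over all 14761 tested genes (grey bars, genes per bin of 0.1) with the 8 kinase genes as lines, red where they passed the threshold, for the NRAS siRNAs averaged and for the ERK inhibitor. Line heights only separate the names. MAP2K2 is the single red line on the left plot, and RPS6KA1, RPS6KA3, MAP2K1 and KSR1 are red on the right plot.

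Other kinases of the cascade that fell with the NRAS siRNAs averaged were RPS6KA5 at -0.72 (SE 0.13, edgeR adjusted p = 0.0126), RPS6KA2 at -0.48 (SE 0.10, adjusted p = 0.0180) and RPS6KA4 at -0.41 (SE 0.11, adjusted p = 0.0459), that is 3 of 9 tested, beside 4.99% of all tested genes lower. RPS6KA2 was at 41.0 and 46.9 CPM with the nonspecific siRNA, at 31.6 and 30.3 CPM with siRNA 1 and at 29.6 and 34.6 CPM with siRNA 2, so that every NRAS siRNA library was lower than both controls. RPS6KA5 was at 24.2 and 24.5 CPM with the nonspecific siRNA. It was at 12.8 and 14.8 CPM with siRNA 1 and 15.3 and 16.3 CPM with siRNA 2, close to its DMSO levels of 17.6 and 13.1 CPM. RPS6KA4 was at 55.2 and 60.5 CPM with the nonspecific siRNA and at 43.5 and 51.4 CPM in DMSO. Its NRAS siRNA libraries ran from 37.2 to 47.1 CPM. The part of the higher nonspecific siRNA level in these falls was not tested. RPS6KA5 lost its call without nonspecific siRNA replicate 1 (adjusted p = 0.0795) or 2 (0.0584). RPS6KA2 lost it without nonspecific siRNA replicate 1 (0.0640) or 2 (0.0979), siRNA 1 replicate 1 (0.0524) or siRNA 2 replicate 1 (0.0627), and RPS6KA4 without any compared library but siRNA 2 replicate 2 (0.0671 to 0.174). RPS6KA4 also lost its call with RLE scaling (0.0553), with only the groups compared (0.0925) and in a fit without the inhibitor libraries (0.0700), and RPS6KA2 with only the groups compared (0.0671). RPS6KA6 at 0.51 (SE 0.21), MKNK1 at 0.18 (SE 0.11), MKNK2 at -0.20 (SE 0.09) and MAP3K8 at 0.18 (SE 0.28) did not pass.

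The difference between both responses was tested directly as the mean siRNA log2 fold change minus that of the inhibitor, and 3 of the 8 kinase genes passed, beside 7.30% of all tested genes (2.73% higher and 4.57% lower). MAP2K2 differed by -0.73 (SE 0.15, edgeR adjusted p = 0.0225): it was lower after NRAS knockdown, and it was not lower with the inhibitor. RPS6KA1 differed by 0.60 (SE 0.15, adjusted p = 0.0455) and RPS6KA3 by 0.60 (SE 0.15, adjusted p = 0.0381), both being further below control with the inhibitor. MAP2K1 at 0.28 (SE 0.14, 95% interval -0.027 to 0.59, adjusted p = 0.250), KSR1 at -0.45 (SE 0.22, adjusted p = 0.251), BRAF at 0.37 (SE 0.23), ARAF at -0.12 (SE 0.15) and MAPK3 at 0.09 (SE 0.15) did not pass. RPS6KA2, with a fall after knockdown and none called with the inhibitor, also differed, by -0.68 (SE 0.15, adjusted p = 0.0263). That difference was lost without nonspecific siRNA replicate 2 (0.0653), siRNA 1 replicate 2 (0.0592), DMSO replicate 1 (0.0761) or 2 (0.0856), or ERK inhibitor replicate 1 (0.111) or 2 (0.0508). The 3 calls among the 8 kinase genes are close to the threshold too. That of RPS6KA1 was lost on leaving out any 1 library (adjusted p = 0.0557 to 0.169) and with other scalings. That of MAP2K2 was lost without nonspecific siRNA replicate 1 (0.0679), DMSO replicate 1 (0.0732), DMSO replicate 2 (0.0667) or ERK inhibitor replicate 1 (0.0915). That of RPS6KA3 was lost without nonspecific siRNA replicate 1 (0.112), siRNA 1 replicate 2 (0.0771), siRNA 2 replicate 1 (0.0697) or 2 (0.0599), DMSO replicate 1 (0.112), or ERK inhibitor replicate 1 (0.137) or 2 (0.0937). The siRNA and drug groups also differ in time and in transfection, which cannot be told apart from the agents themselves.

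In the comparison of both siRNAs with each other, 0 of the 8 kinase genes passed in edgeR, beside 0.427% of all tested genes, 0 had an unadjusted p under 0.05 (5.97% of all tested genes) and DESeq2 called 0. In the comparison of the nonspecific siRNA with DMSO, again 0 of 8 passed, beside 0.379% of all tested genes, with 0 at an unadjusted p under 0.05 (11.6% of all tested genes) and 0 in DESeq2. Log2 differences of the 8 between these control groups ran from -0.054 (KSR1) to 0.13 (MAP2K2). Of the other cascade kinases, 4 of 9 tested had an unadjusted p under 0.05 in edgeR between the controls, beside 11.6% of all tested genes. They were MKNK2, RPS6KA5, MAP3K8 at 0.90 (SE 0.36) and RPS6KA4 at 0.29 (SE 0.13), all higher with the nonspecific siRNA. After adjustment, 1 of the 9 passed. It was MKNK2, the gene of an ERK-activated kinase of the translation factor eIF4E, which was higher with the nonspecific siRNA by 0.77 (SE 0.11, edgeR adjusted p = 0.0262). That call was lost on leaving out any 1 of the 4 libraries (adjusted p = 0.0683 to 0.226) and with only the groups compared (0.0782). Its siRNA and inhibitor values thus start from control levels of 121 and 107 CPM with the nonspecific siRNA and 66.0 and 67.7 CPM in DMSO. RPS6KA5, whose difference between the controls was 0.67 (SE 0.15, edgeR adjusted p = 0.106), was at 24.2 and 24.5 CPM with the nonspecific siRNA and at 17.6 and 13.1 CPM in DMSO. Its value in DESeq2 passed (adjusted p = 0.0126).

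Within a library the ratio of 2 transcripts does not depend on scaling, so the paralog pairs were compared this way. The count ratio of MAP2K1 to MAP2K2 was 1.10 and 1.23 in DMSO and 0.599 and 0.791 with the inhibitor. It was 1.09 and 1.21 with the nonspecific siRNA, 1.41 and 1.49 with siRNA 1 and 1.26 in both siRNA 2 libraries. MAP2K1 thus had the higher count in all libraries but those of the inhibitor, where MAP2K2 did. The mean log2 ratio fell by 0.76 from DMSO to the inhibitor, and was higher by 0.34 with siRNA 1 and by 0.13 with siRNA 2 than with the nonspecific siRNA. With 2 libraries on each side these ratios were not tested.

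The ratio of RPS6KA1 to RPS6KA3 was 0.166 and 0.223 in DMSO and 0.210 and 0.193 with the inhibitor, so that the inhibitor libraries lay between the DMSO libraries while both transcripts fell. The ratio of ARAF to BRAF was 4.05 and 5.62 in DMSO and 6.33 and 5.42 with the inhibitor, which overlap.

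**Figure D4:**
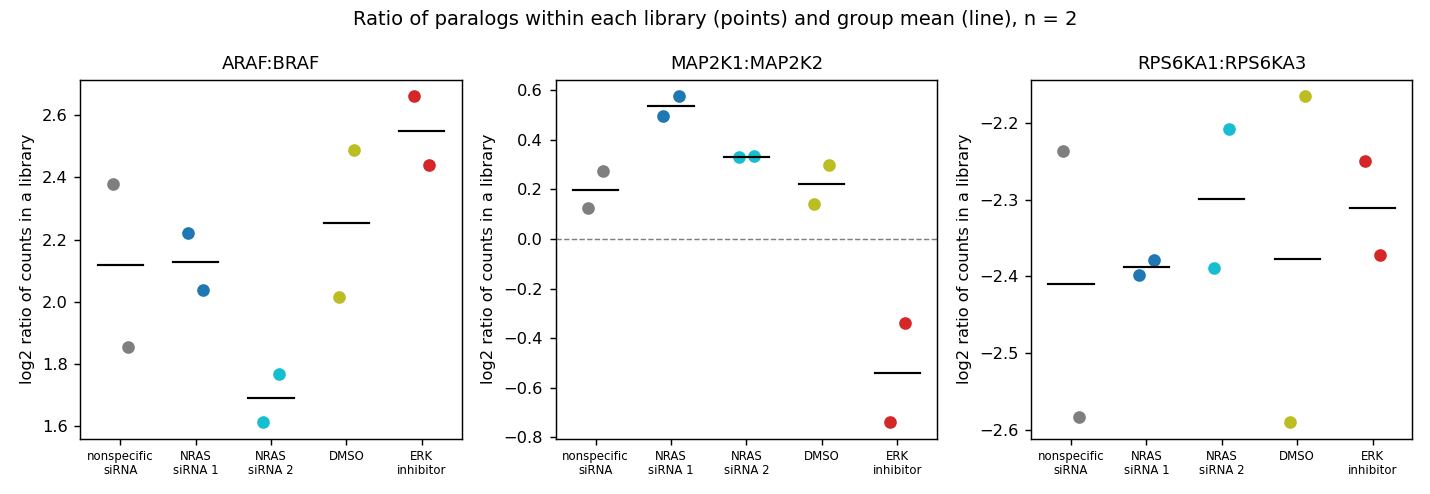
Log2 ratio of counts (vertical axis) of 3 pairs of paralogs within each library, by group (horizontal axis). Points are libraries and lines are the means of 2. The ratio of MAP2K1 to MAP2K2 is below 0 in both ERK inhibitor libraries and above 0 in the other 8.

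Levels of different genes were set side by side per kilobase of the longest annotated transcript (GENCODE 29). In DMSO, RPS6KA3 stood at 28.2 ± 3.36, MAP2K1 at 25.2 ± 2.75 and MAP2K2 at 25.2 ± 0.825 CPM per kilobase (SD, n = 2 each). These 3 did not differ beyond their spread. ARAF at 20.3 ± 1.92 and MAPK3 at 18.7 ± 0.598 followed, and their libraries overlapped as well. RPS6KA1 was lower at 13.7 ± 1.21, and BRAF at 1.12 ± 0.153 and KSR1 at 0.629 ± 0.0140 CPM per kilobase were by far the lowest (SD, n = 2 each).

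With the inhibitor the order changed: MAP2K2 led at 29.6 ± 4.54, followed by ARAF at 20.0 ± 0.315, MAPK3 at 17.5 ± 0.137 and MAP2K1 at 17.4 ± 0.732 CPM per kilobase. MAPK3 and MAP2K1 overlapped. By this length RPS6KA3 was below all 4 of these at 15.4 ± 0.0802, and RPS6KA1 stood at 7.88 ± 0.513. KSR1 at 0.984 ± 0.0612 and BRAF at 0.897 ± 0.111 CPM per kilobase overlapped (SD, n = 2 each), after being separate in DMSO. The order depends on the length used: per kilobase of coding sequence RPS6KA3 was first in DMSO at 103 ± 12.3, with no overlap with the next gene, and MAPK3 stood above ARAF. With the inhibitor, on that scale, MAP2K2 was still first at 72.2 ± 11.1, but RPS6KA3 was next at 56.4 ± 0.293, above MAP2K1 at 50.3 ± 2.12, MAPK3 at 39.5 ± 0.309 and ARAF at 27.4 ± 0.432 CPM per kilobase (SD, n = 2 each). BRAF at 3.55 ± 0.441 then lay above KSR1 at 2.56 ± 0.159 without overlap (SD, n = 2 each).

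**Figure D5:**
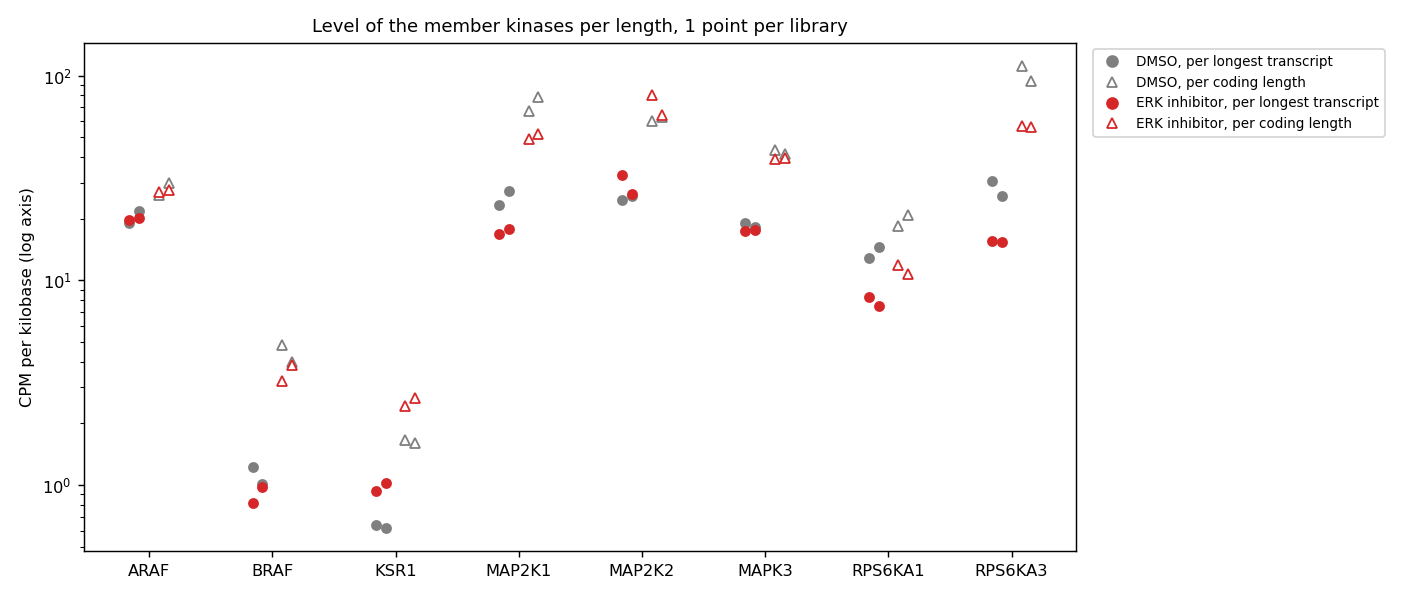
Level of the 8 kinase genes (horizontal axis) in CPM per kilobase (log axis) in DMSO (grey) and ERK inhibitor (red) libraries, per kilobase of the longest transcript (circles) or of coding sequence (triangles). BRAF and KSR1 are the lowest by either length, and the red points of RPS6KA1, RPS6KA3 and MAP2K1 lie under the grey ones.

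Components that link receptors to RAS were counted next. Of 18 tested adaptors, exchange factors and GTPase-activating proteins, 4 rose and 0 fell with the inhibitor, beside 13.2% of all tested genes higher and 14.8% lower. They were the adaptor GAB1 at 0.89 (SE 0.14, edgeR adjusted p = 0.00125), the exchange factors RASGRP3 at 2.23 (SE 0.36) and SOS2 at 0.46 (SE 0.13), and the GTPase-activating protein RASAL2 at 0.75 (SE 0.13). RASGRP3 had low counts, 14 and 24 in DMSO and 99 and 102 with the inhibitor. With the NRAS siRNAs averaged, 2 rose and 0 fell, beside 2.97% of all tested genes higher and 4.99% lower, namely GAB1 at 0.53 (SE 0.12, adjusted p = 0.0285) and SOS2 at 0.48 (SE 0.11, adjusted p = 0.0295). GAB1 was at 21.3 and 21.5 CPM with the nonspecific siRNA, 31.8 and 29.7 CPM with siRNA 1 and 34.4 and 27.7 CPM with siRNA 2, and at 25.2 and 21.3 CPM in DMSO and 40.9 and 45.1 CPM with the inhibitor. It was thus higher in every treated library than in its controls. The list's median was 0.17 with the inhibitor and 0.22 with the siRNAs, beside 0.00070 and -0.0054 over all tested genes. The siRNA call of GAB1 was lost without nonspecific siRNA replicate 1 (adjusted p = 0.117) or 2 (0.0950), siRNA 1 replicate 1 (0.0854) or siRNA 2 replicate 1 (0.0861). That of SOS2 was lost without nonspecific siRNA replicate 1 (0.146), siRNA 1 replicate 1 (0.0900) or siRNA 2 replicate 1 (0.0950). With only the groups compared, both were lost (0.0588 for GAB1 and 0.0540 for SOS2). The inhibitor call of SOS2 was lost without DMSO replicate 2 (0.136) and ERK inhibitor replicate 1 (0.0525) or 2 (0.124).

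Of 31 scaffolds and regulators of RAF and ERK, 9 fell and 1, MRAS, rose with the inhibitor, at a list median of -0.10. The 10 called stand beside 28.0% of all tested genes, 14.8% lower and 13.2% higher, a share close to that of the list. The chaperone gene HSP90AA1, whose product stabilises RAF kinases, fell by 0.69 (SE 0.14, edgeR adjusted p = 0.00507), the arrestin gene ARRB2 by 0.57 (SE 0.10), the RAF scaffold gene CNKSR2 by 0.68 (SE 0.15) and the 14-3-3 gene YWHAQ by 0.43 (SE 0.09). HSP90AA1 was at 1454 and 1416 CPM in DMSO, above every other library. It was at 841 and 932 CPM with the inhibitor and at 843 and 1119 CPM with the nonspecific siRNA. Left-out libraries ended the calls of HSP90AA1, CNKSR2 and YWHAQ. HSP90AA1 lost its own without ERK inhibitor replicate 1 (adjusted p = 0.0537), CNKSR2 without DMSO replicate 1 (0.0527) or ERK inhibitor replicate 1 (0.0607), and YWHAQ without DMSO replicate 2 (0.0719) or ERK inhibitor replicate 1 (0.0514).

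Of 28 tested kinases of the other MAPK modules, 5 fell and 2, MAPK7 and MAP2K5, rose with the inhibitor, at a list median of -0.032 and beside 28.0% of all tested genes called, again a share close to that of the list. MAP2K5, like MRAS above, is named after its value was seen. MAP3K5, the gene of the stress kinase ASK1, fell by 1.32 (SE 0.10, edgeR adjusted p = 1.83e-05) and kept its call without any 1 library. MAPK7, the gene of ERK5, was higher by 0.50 (SE 0.13, adjusted p = 0.0213), which was lost without DMSO replicate 1 (0.103), DMSO replicate 2 (0.0513) or ERK inhibitor replicate 1 (0.127). With the NRAS siRNAs averaged, MAP2K4, the gene of the JNK-activating kinase MKK4, rose by 0.73 (SE 0.11, adjusted p = 0.00699), and MAP3K3 at -0.52 (SE 0.08) and MAP3K11 at -0.42 (SE 0.11) fell. The calls of MAP2K4 and MAP3K3 were lost without nonspecific siRNA replicate 1 (0.0640 and 0.0716), and that of MAP3K11 without any compared library but siRNA 2 replicate 2 (0.0828 to 0.147). MAP3K11 also lost its call with RLE (0.0527) or upper-quartile scaling (0.0513), with only the groups compared (0.0938) and in a fit without the inhibitor libraries (0.0566).

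For the 5 kinase genes called against their own control, the genes whose levels followed them most closely over the 10 libraries were sought, by Pearson's r of log2 CPM, among genes with a mean of at least 5 CPM. For RPS6KA3 these were ZNF704 (r = 0.987) and CLMN (0.980), for RPS6KA1 CNIH3 (0.980) and GYPC (0.979), and for MAP2K1 TTLL4 (0.988) and ERLIN1 (0.987). For MAP2K2 they were C7orf50 (0.975) and ARFRP1 (0.969), and for KSR1 TOM1L2 (0.972) and MAGEH1 (0.965). Over the 8 libraries without the inhibitor, r remained above 0.95 for both partners of MAP2K1 (0.958 and 0.969) and of MAP2K2 (0.964 and 0.965), and was 0.957 and 0.909 for RPS6KA3, 0.872 for either partner of RPS6KA1, and 0.866 and 0.813 for KSR1. The libraries of a group share their treatment, so these values describe likeness over 5 groups more than over independent samples.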

How the data were processed

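The authors deposited read counts per gene as whole numbers, without normalization. Tools named in the submitters' processing notes are TopHat2, SAMtools, HTSeq and bcl2fastq, and the builds are hg19 and GRCh37. Versions and the strand setting: not given in the sources used here. Reads assigned to no single gene (38.3 to 39.4% of a library, of which 27.0 to 28.9 points aligned to several places) were left out, which can lower the counts of genes with close copies. ARAF, BRAF, KSR1 and MAP2K1 have annotated pseudogenes, and whether these lowered the counts of the kinase genes was not tested. No replicate pair agreed within sampling noise (chi-square 13.2 to 25.5 per degree of freedom), so each library counted once. At these depths 3 counts correspond to 0.0975 to 0.129 CPM, scaled by library total alone.

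All 10 libraries entered 1 edgeR 4.0.16 quasi-likelihood fit (R 4.3.3; TMM factors 0.968 to 1.03, filterByExpr at a minimum count of 10, 5 residual degrees of freedom, no covariate), with Benjamini-Hochberg adjustment over 14761 genes at 0.05. The script was tested on simulated data. Alternatives were DESeq2 1.42.0, other scalings, no filter, only the groups compared, a replicate block and each library left out. Lengths and overlaps are from GENCODE 29 (GRCh38), not the authors' annotation. SCH772984 is also spelled SHC772984 in the labels.

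The kinase genes, the gene lists and the rule for naming genes were chosen with earlier results of these data known. The rule named the 8 kinases, the other cascade kinases, up to 4 called genes of smallest adjusted p per list, and the 2 most alike genes per called kinase; some of these are not reported here.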

Additional observations from a re-analysis of the deposited data

How the results depend on the processing

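With the ERK inhibitor, 4 kinase genes passed in each planned setting other than leaving out a library, which gave 2 to 3. With siRNA 1, 1 became 0 with RLE or upper-quartile scaling and with only the groups compared, and 0 on leaving out any library. With siRNA 2 it became 0 in the same settings and 2 with the replicate block, and for the mean 2 with the block and 0 to 1 on leaving out a library. For the difference of responses, 3 became 0 to 2 on leaving out a library. The added call under the replicate block was MAP2K1 (adjusted p = 0.0232 for siRNA 2 and 0.0262 for the mean). Among the other cascade kinases the block added MAP3K8 with the inhibitor (log2 fold change 0.76, adjusted p = 0.0403) and RPS6KA5 between both controls (adjusted p = 0.0442). The labels do not say that equal numbers pair libraries, and deviations of same-numbered libraries correlated at 0.0737 to 0.448.

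Counts over all tested genes moved more. For siRNA 1, 305 became 785 without the filter, 741 in DESeq2, 1280 with the replicate block, 45 with only the groups compared and 28 to 165 on leaving out a library. For siRNA 2, 949 became 1690, 1556, 2815, 225 and 53 to 1144 in that order. For their mean, 1174 became 1765 without the filter, 2846 with the block, 425 with only the groups compared and 131 to 1491 on leaving out a library. For the inhibitor, 4128 became 1875 to 3298 on leaving out a library. For siRNA 1 against siRNA 2, 63 became 134 in DESeq2, 120 with the block, 28 with only the groups compared, 38 in a fit without the inhibitor libraries (chosen after seeing the data) and 6 to 18 on leaving out a library. For the nonspecific siRNA against DMSO, 56 became 283 without the filter, 341, 446, 12, 30 and 6 to 12. For the difference of responses, 1078 became 2379 with the block and 343 to 915 on leaving out a library; it could not be refitted with only the groups compared, since it uses all 5.

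The log2 fold change of MAPK3 for the siRNA mean was 0.0033 with RLE scaling, 0.013 with upper-quartile scaling, 0.012 without the filter, 0.0035 in DESeq2, 0.015 with only the groups compared and 0.0019 in the fit without the inhibitor libraries. With upper-quartile scaling and the inhibitor, ARAF was at 0.034. Per kilobase of coding sequence, DMSO levels were 27.9 CPM for ARAF, 4.43 for BRAF, 1.63 for KSR1, 73.0 for MAP2K1, 61.4 for MAP2K2, 42.2 for MAPK3, 19.7 for RPS6KA1 and 103 for RPS6KA3. The cause of these changes was not tested. On leaving out 1 library, signs turned among the tested values named here only for genes that had not passed: for the siRNA mean BRAF (-0.096 to 0.25), MAPK3 (-0.16 to 0.18) and MAP3K8 (-0.21 to 0.77), with the inhibitor ARAF (-0.12 to 0.10), RPS6KA4 (-0.086 to 0.18) and NRAS (-0.23 to 0.017), and for the difference of responses MAPK3 (-0.058 to 0.25).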
